A study of Mus musculus with 21 samples.

Results

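The genes described here are those that carry glucose into the cell, break it down to pyruvate and exchange pyruvate for lactate. They were given as 36 symbols: 4 glucose transporters, 4 hexokinases, glucose phosphate isomerase, 3 phosphofructokinases and their 4 regulatory enzymes, the enzymes from aldolase to pyruvate kinase, 2 lactate dehydrogenases, 2 lactate transporters, 3 pyruvate dehydrogenase kinases and the transcription factor gene Hif1a. The list was drawn by gene function, but with earlier results of these data known. Matching by identifier to GENCODE M21 found 37 identifiers among the 35598 genes of each table, because Aldoa has 2. Of these, 31 had enough reads to be tested together with the other genes, 13898 in all.

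Glycolysis turns glucose into pyruvate with a small gain of ATP and NADH, and pyruvate is then either reduced to lactate or taken into the mitochondrion. The rate is set mainly at glucose uptake, hexokinase, phosphofructokinase and pyruvate kinase, and several of these steps have tissue-specific isoenzymes. Podocytes, the cells that form the filtration slits of the glomerulus, are known to draw much of their ATP from glycolysis.

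The mice were 3-month-old females, and all carried floxed Epac1 alleles (Epac1fl/fl). Mice called cKO here also carried a Cre recombinase active in podocytes, so that Epac1 was deleted in those cells and not in the endothelial, mesangial or tubular cells of the same kidneys. Their littermates without Cre are called flox. Epac1, the product of Rapgef3, is an exchange factor that activates Rap GTPases when it binds cyclic AMP. Nephrotoxic serum, given into a vein on each of 2 consecutive days, caused the glomerulonephritis. Kidneys were taken at day 4 or day 11, and the remaining mice received PBS. Glomeruli were cut by laser from frozen sections, and 1 library of 3′ tags was made per sample. There were 3 cKO and 3 flox libraries after PBS, 4 cKO and 3 flox libraries at day 4, and 4 cKO and 4 flox libraries at day 11. The study concerns podocyte Epac1 and glycolysis in glomerulonephritis, and its design compares the genotypes across the disease.

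The libraries held 4550550 to 24295712 reads (median 19470098) and 7871 to 13006 detected genes, and 14.9% to 39.5% of reads fell on the ribosomal RNA gene CT010467.1. The cKO replicate 3 at day 4 had the fewest genes and the cKO replicate 3 at day 11 the fewest reads, and without both 0 genes of the set were called in any comparison. All 8 podocyte, 8 endothelial and 6 mesangial marker genes examined had reads in all 21 libraries, including Podxl, Kdr and Itga8. Tubular genes were also present, with a summed level of 679 to 7403 CPM (counts scaled to library size) for 14 proximal tubule genes and 553 to 4431 CPM for 10 distal ones. The 5 erythrocyte genes summed to 482 to 18285 CPM. The summed proximal level averaged 1600.2 ± 382 CPM in cKO and 1749 ± 969.5 CPM in flox at day 11, against 2979 ± 1436 CPM and 2456 ± 626 CPM after PBS in cKO and flox mice (SD, n = 4 per genotype at day 11 and 3 after PBS). Rapgef3 itself averaged 121 ± 50.2 CPM in cKO and 270.2 ± 60.5 CPM in flox mice after PBS (SD, n = 3 each). At day 4 it averaged 119.9 ± 38.8 CPM (n = 4) in cKO and 191 ± 58.0 CPM (n = 3) in flox mice, and at day 11 176.9 ± 28.6 CPM and 205 ± 100.7 CPM (n = 4 each). Tags at the transcript end need not lie in the deleted part of the gene, and cells other than podocytes keep it, so these levels do not check the deletion.

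Reads were found in all 21 libraries for 14 of the 37 identifiers: Slc2a1, Hk1, Gpi1, Aldoa, Tpi1, Gapdh, Pgk1, Pgam1, Eno1, Pkm, Ldha, Ldhb, Pdk2 and Hif1a. Another 21 had reads in some libraries, and Pfkfb2 and the second Aldoa identifier had reads in none. Because tags come from transcript ends, CPM values of different genes were set side by side without dividing by length. The handling of duplicate reads was not given, and reads of near-identical genes may be divided, so the order of genes is approximate. Aldoa and Pkm were the most abundant, at 91.3 to 488 and 77.7 to 443 CPM, followed by Ldhb, Gpi1 and Pgam1. The whole set summed to 0.166 to 0.273% of the scaled library size on which CPM rests (median 0.217%). That size differs from the number of reads of a library. The share of the set in it averaged 0.214% ± 0.0303 in cKO and 0.202% ± 0.0614 in flox after PBS (SD, n = 3 each). It averaged 0.216% ± 0.0175 (n = 4) in cKO and 0.228% ± 0.00360 (n = 3) in flox at day 4. At day 11 it averaged 0.207% ± 0.0355 in cKO and 0.220% ± 0.0222 in flox (n = 4 each). The groups overlapped between genotypes at each stage.

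**Figure D1:**
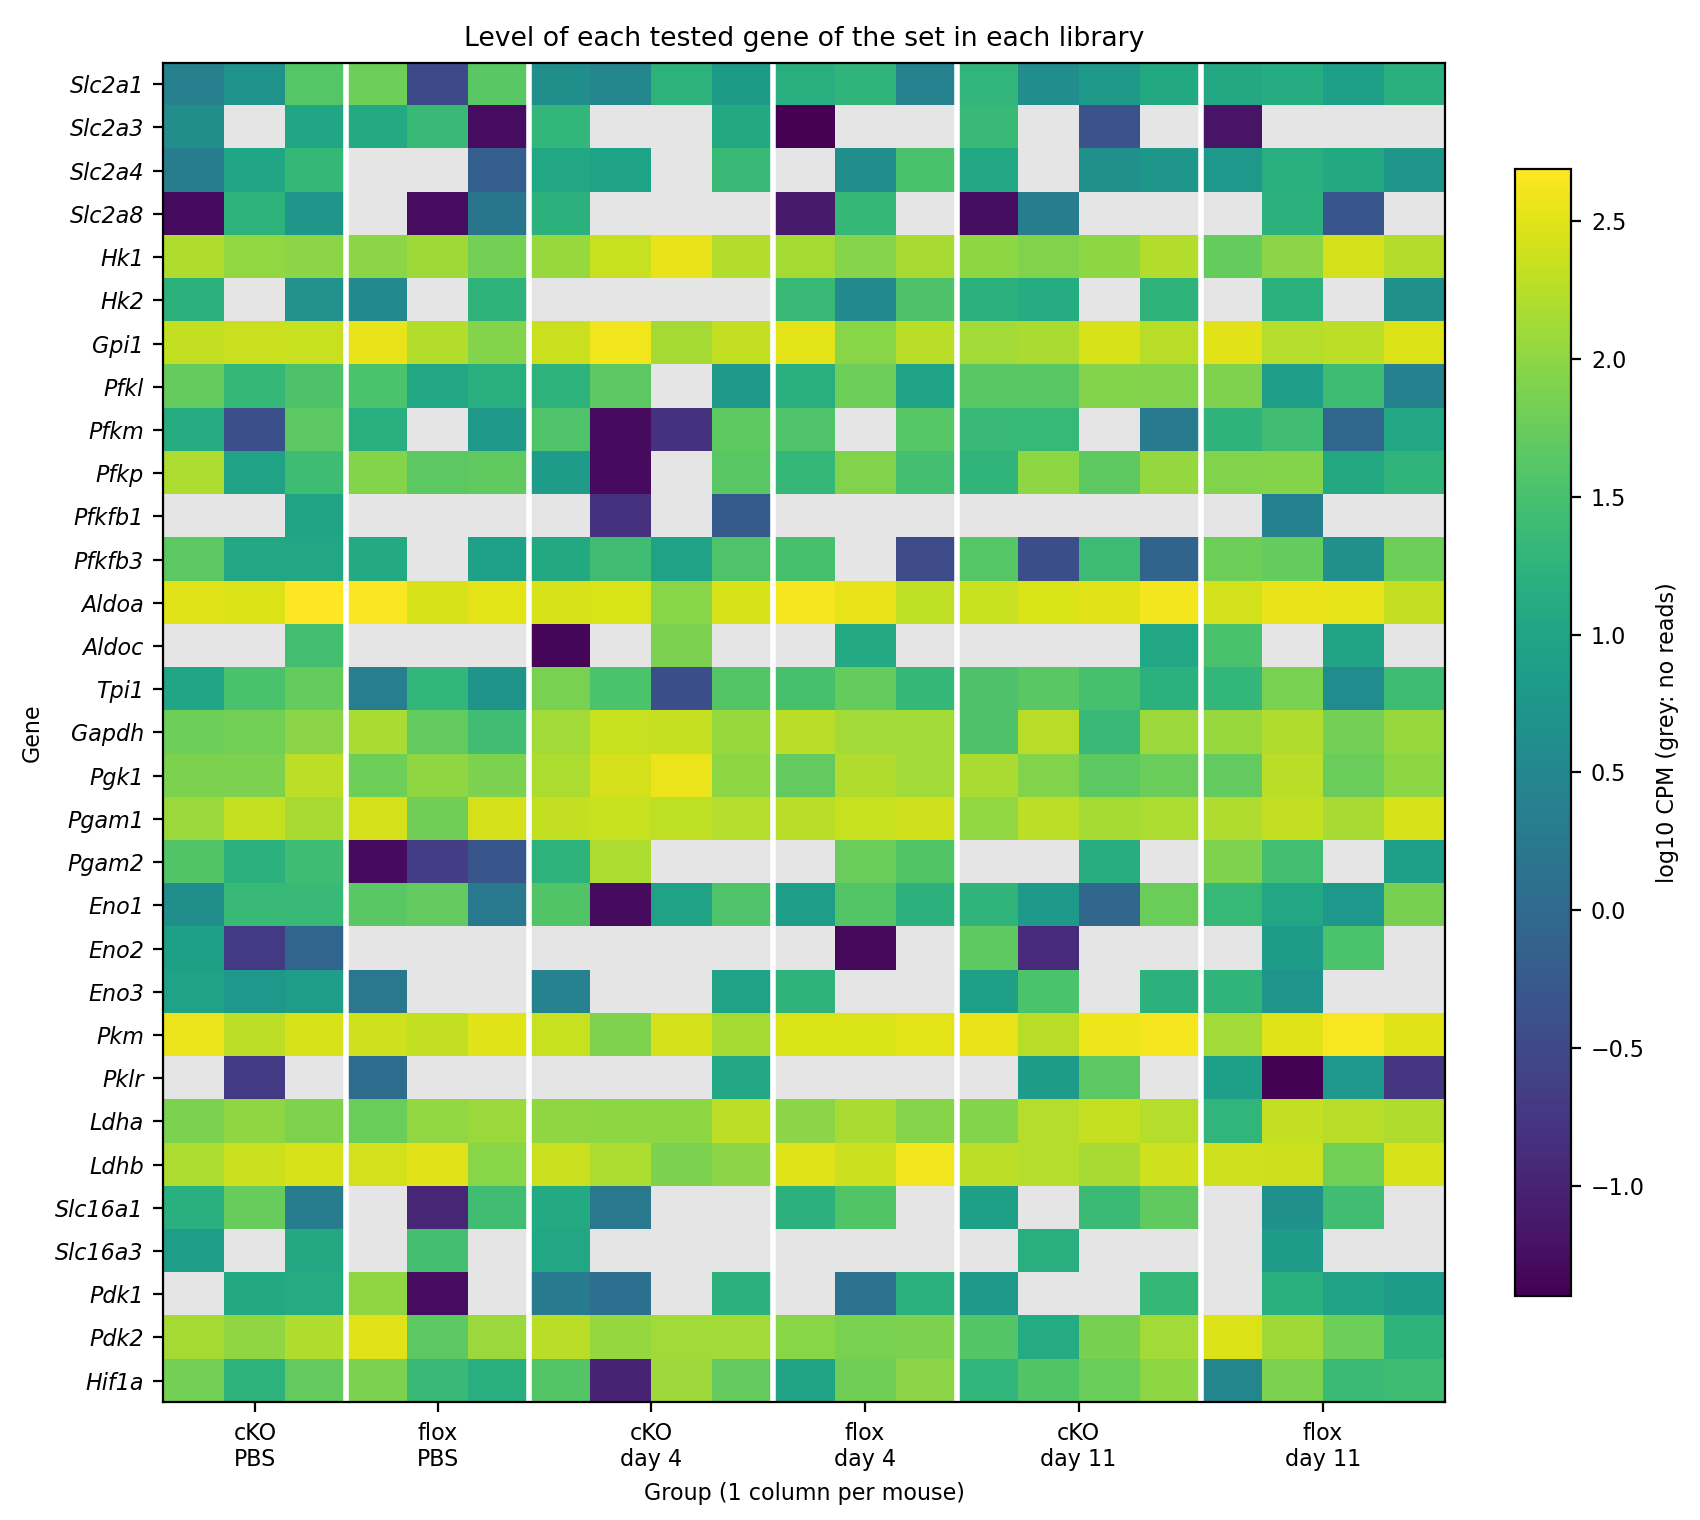
Level of the 31 tested genes of the set in each of the 21 libraries, as log10 CPM by colour, with libraries in columns by group (cKO left of flox at each stage) and grey where a library had no reads. Of the genes, 14 are coloured throughout, and the other 17 are grey in at least 1 library.

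For the less abundant genes a library often had either many reads or none. In 52 of 186 combinations of a tested gene and a group (27.96%), 1 library had no reads while another of the same group had at least 100, and the same held for 28.4% of such combinations over all genes tested. A count of 0 allows up to 0.120 to 0.672 CPM in a library, depending on its depth. These limits, and intervals from read counts, cover counting error only. For the 14 genes seen in every library, the coefficient of variation between mice of a group was 4.94% to 133%, with a median of 45.6%. In whole glomeruli, fewer cells of a type and less RNA per cell cannot be told apart.

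No gene of the set differed between genotypes, averaged over the 3 stages, at an adjusted p under 0.05 (edgeR quasi-likelihood test with Benjamini-Hochberg adjustment over 13898 genes). The share called among all genes was 0.0072%. At an unadjusted p under 0.05, 2 of the 31 passed, Slc2a3 and Hk2, against 6.62% of all genes. Over the 25 genes of the set with reads in every group, the median log2 fold change of cKO over flox was 0.06, with 14 above 0 and 11 below. The median over all such genes tested was -0.01. With the other 6 set at a floor of 3 counts in each group without reads, the median of the set was 0.24. DESeq2 called 2, Pklr and Aldoc, each with a group without reads, while limma voom called 0. Among all 13898 genes, DESeq2 called 904 and voom 3.

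For 9 of those 25 genes the 95% interval of the genotype difference lay within a 2-fold change in either direction. They were Hk1, Gpi1, Aldoa, Gapdh, Pgam1, Pkm, Ldha, Ldhb and Pdk2. For Aldoa the log2 fold change was -0.11 ± 0.21 (SE, 95% interval -0.55 to 0.32), for Pkm -0.16 ± 0.23 (-0.63 to 0.31) and for Gapdh -0.07 ± 0.35 (-0.79 to 0.65). Ldha gave 0.06 ± 0.32 (-0.60 to 0.71) and Hk1 0.24 ± 0.29 (-0.35 to 0.84). The interval of Slc2a8 ran from -3.78 to 3.85.

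**Figure D2:**
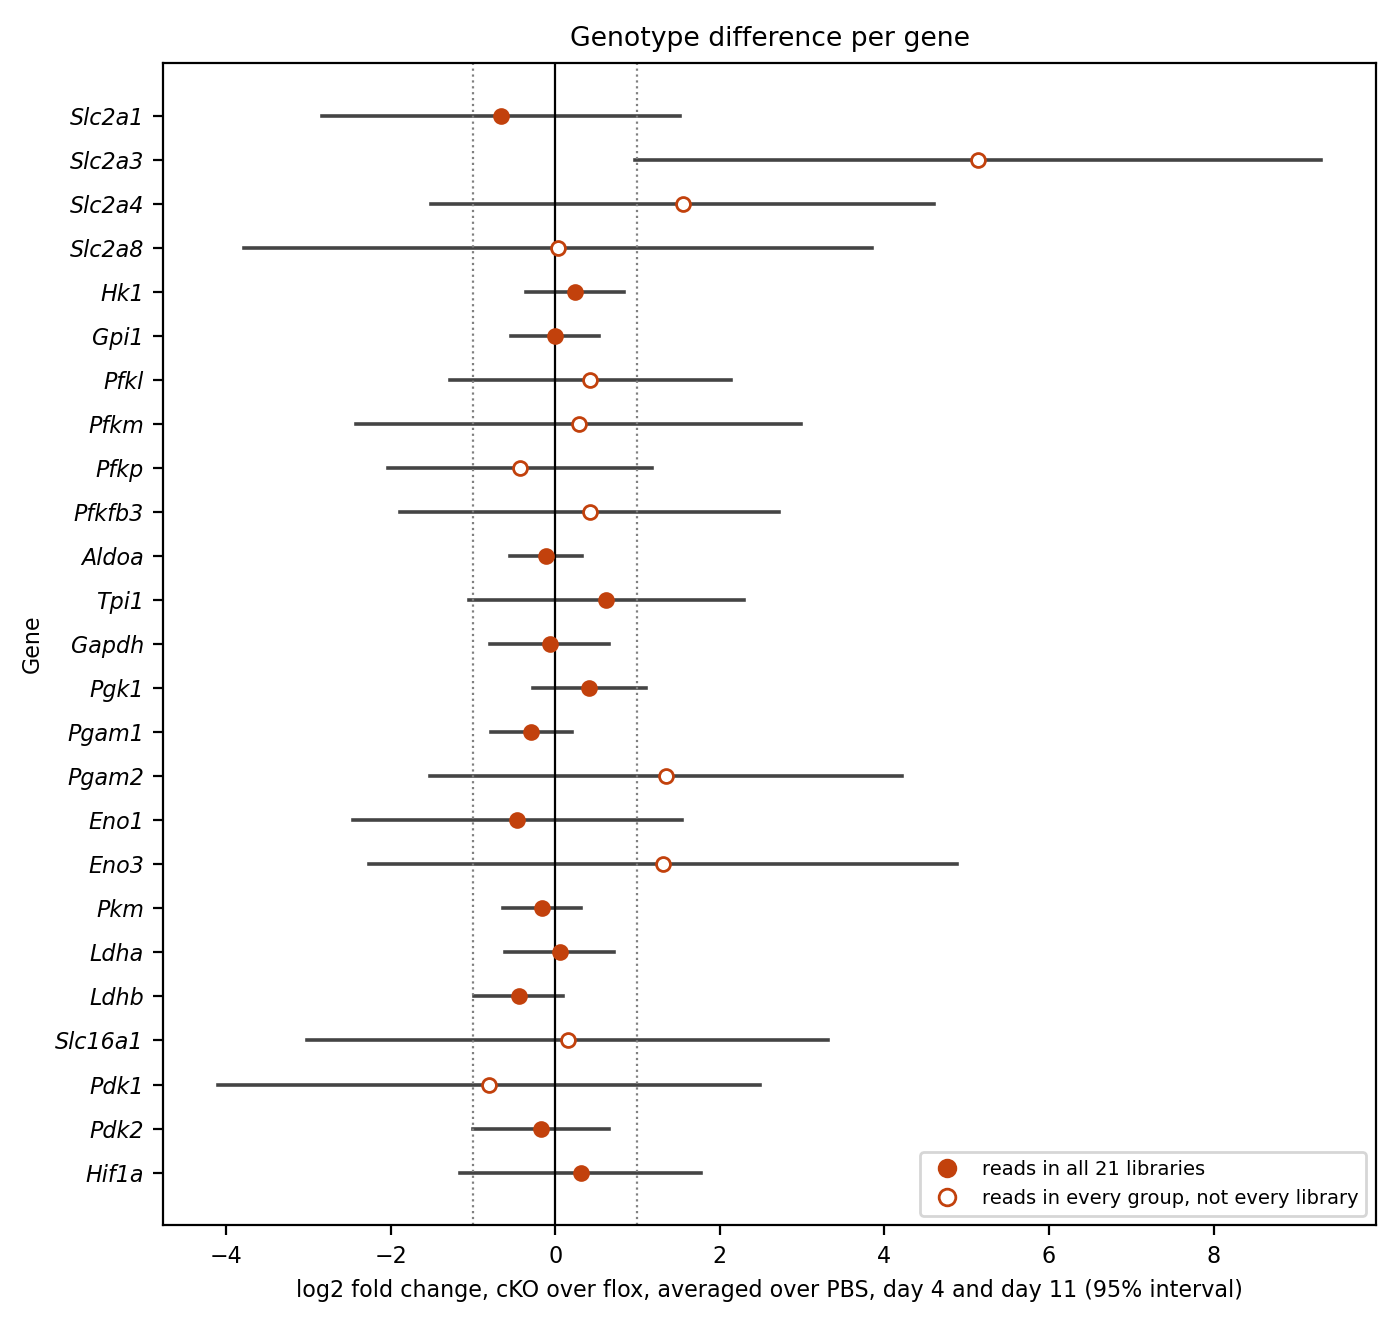
Log2 fold change of cKO over flox, averaged over PBS, day 4 and day 11, with its 95% interval, for the 25 genes of the set with reads in every group (filled points, reads in all 21 libraries). The vertical line marks 0 and the dotted lines a 2-fold change. The intervals of Hk1, Gpi1, Aldoa, Gapdh, Pgam1, Pkm, Ldha, Ldhb and Pdk2 stay between the dotted lines, and that of Slc2a3 (0.97 to 9.30) lies above 0.

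No gene of the set was called between genotypes within a single stage. After PBS, 0 of the 31 genes passed the adjusted threshold (0% of all genes), 4 passed at an unadjusted p under 0.05 (6.02% of all genes), and the cKO and flox libraries did not overlap for 4 (10.2% of all genes). At day 4 these counts were 0 (0%), 2 (7.42%) and 3 (4.46%). At day 11 they were 0 (0%), 1 (5.86%) and 0 (2.52%). DESeq2 called 2, 4 and 0 genes of the set at the 3 stages, against 935, 800 and 495 of all 13898 genes. The median log2 fold change of cKO over flox among genes with reads in both groups was 0.09 after PBS, -0.10 at day 4 and -0.18 at day 11. With genes of empty groups at their floor it was 0.13, -0.02 and -0.21. Over all genes tested with reads in both groups it was 0.02, -0.07 and -0.02.

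In cKO mice, 0 genes of the set were called at day 4 (0% of all genes) and 0 at day 11 (0.0504%). In flox mice 0 were called at day 4 (0%) and 0 at day 11 (0%). Averaged over genotypes, 0 were called at day 4 (0.0216%) and 0 at day 11 (0.122%). Without adjustment, p was under 0.05 for 2 genes of the set at day 4 (8.16% of all genes) and 1 at day 11 (6.02%) in cKO mice, 3 at day 4 (7.93%) and 4 at day 11 (8.25%) in flox mice, and 2 at day 4 (9.28%) and 1 at day 11 (9.12%) over both. The nephritis and PBS libraries did not overlap for 3 genes at day 4 (6.14%) and 1 at day 11 (6.78%) in cKO mice, and for 2 at day 4 (10.7%) and 1 at day 11 (6.39%) in flox mice. DESeq2 called 2 genes of the set in cKO mice at day 4 and 0 at day 11, 4 and 3 in flox mice at day 4 and day 11, and 2 at each stage over both genotypes. Of all 13898 genes DESeq2 called 793 and 640 in cKO mice at day 4 and day 11, and 1126 and 1136 in flox mice. Over both genotypes it called 1256 at day 4 and 1164 at day 11. Both stages of a genotype were compared with the same PBS libraries.

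The median log2 fold change over PBS, among genes of the set with reads in both groups, was 0.06 at day 4 and -0.16 at day 11 in cKO mice, against -0.09 and -0.04 over all such genes tested. In flox mice it was 0.50 at day 4 and 0.26 at day 11, against 0.03 and 0.01 over all such genes. With genes of empty groups at their floor, the medians of the set were -0.06 and -0.22 in cKO mice at day 4 and day 11, so that the sign turned at day 4, and 0.42 and 0.29 in flox mice. Genes above 0 numbered 15 of 29 at day 4 and 12 of 30 at day 11 in cKO mice, and 19 of 26 at day 4 and 15 of 28 at day 11 in flox mice. Over all such genes tested these were 5827 of 12445 and 6059 of 12646 in cKO mice, and 6109 of 11927 and 6091 of 12088 in flox mice. The effect of nephritis was also compared between genotypes as an interaction. For it, 0 genes of the set were called at day 4 (0% of all genes) and 0 at day 11 (0%), and 3 passed at an unadjusted p under 0.05 at each stage (7.74% and 6.94% of all genes). DESeq2 called 4 and 2 interactions of the set at day 4 and day 11, against 1113 and 951 among all 13898 genes. Over all 12 comparisons it made 27 calls among Hk2, Eno2, Aldoc, Pklr, Slc16a3 and Slc2a3, and 26 of them involved a group without reads.

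**Figure D3:**
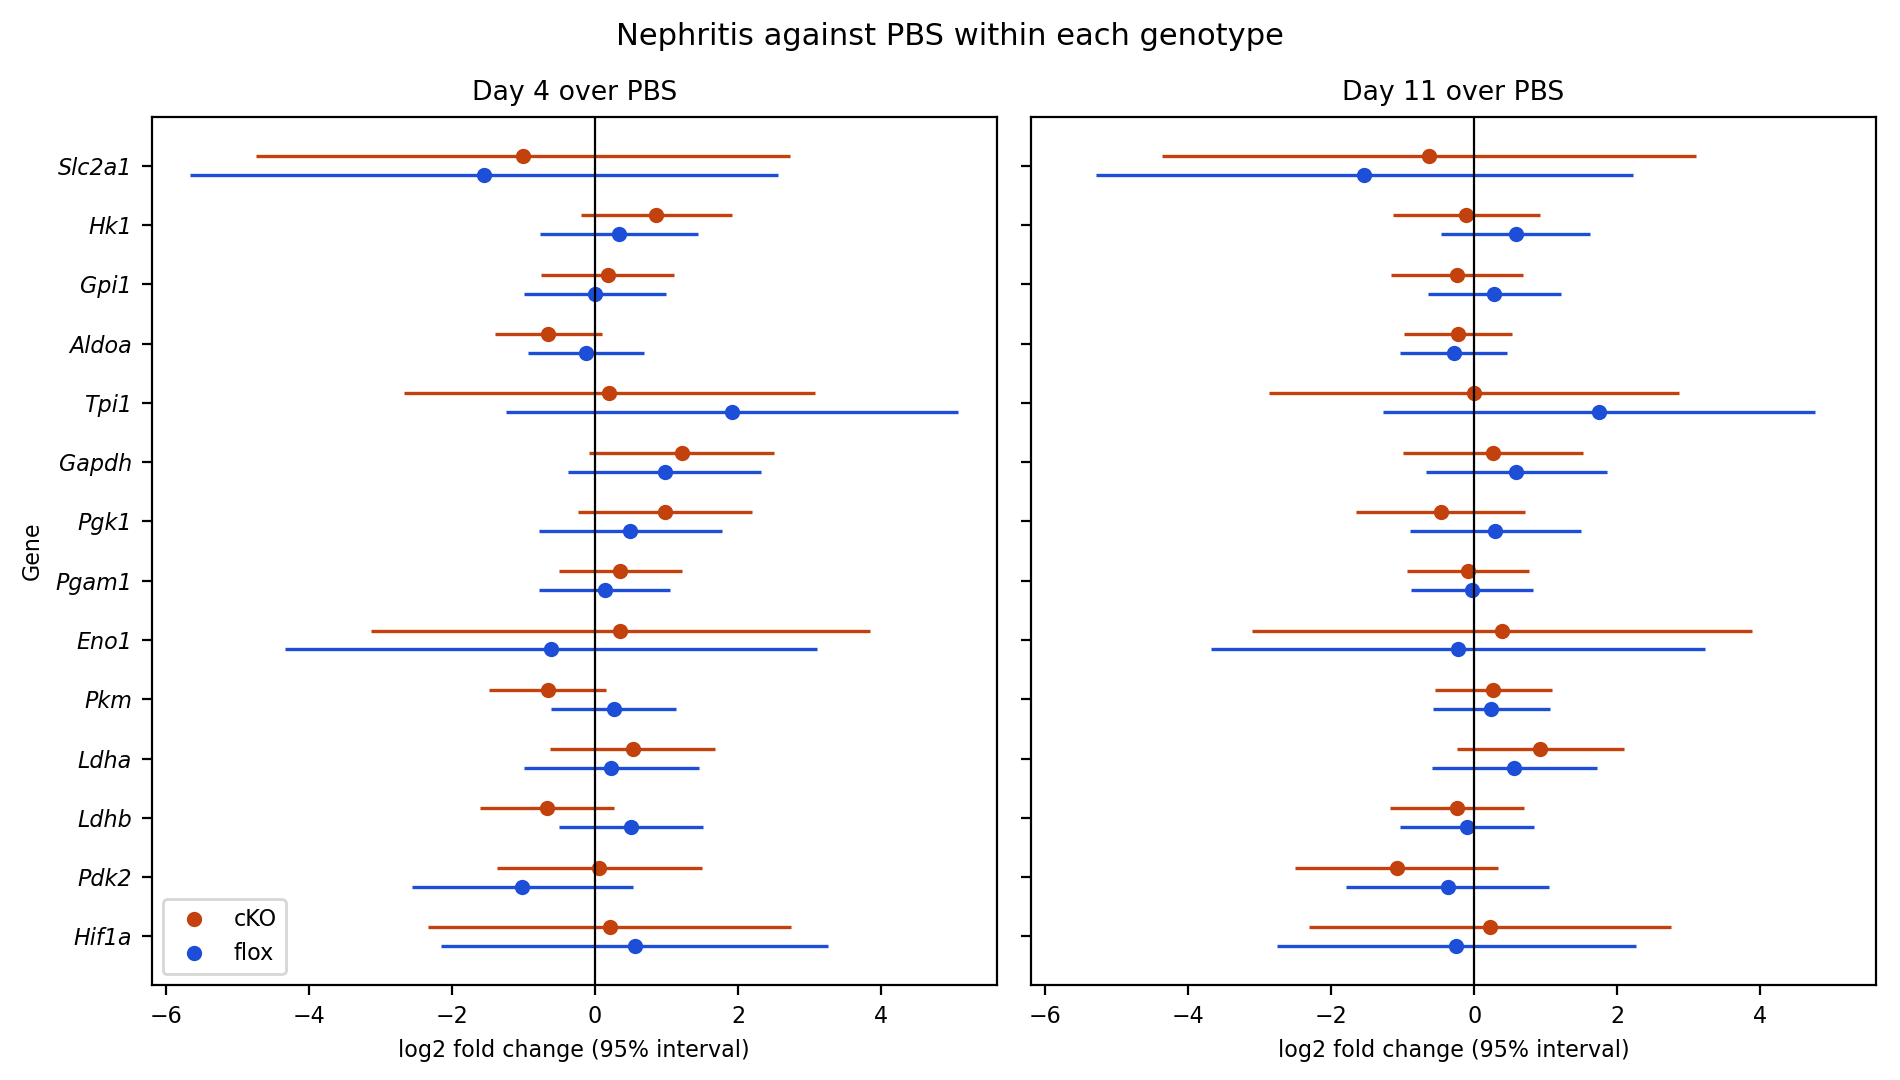
Log2 fold change over PBS at day 4 (left) and day 11 (right) with its 95% interval, for cKO (orange) and flox (blue), for the 14 genes of the set with reads in all 21 libraries. All 56 intervals include 0, and the shortest are those of Aldoa, Pkm, Pgam1, Gpi1 and Ldhb.

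Among the glucose transporters, Slc2a1, which encodes the basal transporter GLUT1, was seen in every library at a low level. It had 2.45, 5.09 and 40.7 CPM in cKO mice after PBS, 4.38, 3.00, 17.7 and 6.81 CPM at day 4 and 19.4, 4.04, 6.27 and 12.02 CPM at day 11. In flox mice it had 61.5, 0.332 and 44.6 CPM after PBS, 14.4, 19.2 and 2.58 CPM at day 4 and 11.5, 13.4, 8.25 and 15.9 CPM at day 11. The PBS groups held both the highest and the lowest of these values, and all groups overlapped. The fitted log2 fold change of cKO over flox was -0.66 ± 1.07 (SE, adjusted p = 1.0).

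Slc2a3 encodes GLUT3, a high-affinity transporter best known from neurons and leukocytes, at chromosome 6, 122727809 to 122801640, minus strand (GRCm38). It had 4.23, 0 and 10.5 CPM in cKO mice after PBS, 19.9, 0, 0 and 12.3 CPM at day 4 and 24.0, 0, 0.448 and 0 CPM at day 11. The flox mice had 12.8, 22.5 and 0.0556 CPM after PBS, 0.0400, 0 and 0 CPM at day 4 and 0.0650, 0, 0 and 0 CPM at day 11. In flox mice with nephritis, each stage thus had 1 read in a single library, while in cKO mice 2 of 4 libraries at each nephritis stage held reads and the other 2 had none. The gene had the smallest p of the set between genotypes, with a log2 fold change of 5.13 ± 2.04 (adjusted p = 0.596).

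Set against PBS in flox mice, the pooled reads of Slc2a3 gave a log2 ratio of -9.53 (95% exact counting interval -14.83 to -7.04) at day 4 and -9.76 (95% exact counting interval -15.07 to -7.28) at day 11. These intervals do not hold the spread between mice, and in the edgeR test the adjusted p was 0.592 and 0.579. DESeq2 called the day 11 difference in flox mice, with an adjusted p of 0.0430, its only call of the set in which both groups had reads. Averaged over genotypes at day 11 the edgeR log2 fold change was -4.35 ± 2.23 (adjusted p = 0.576). Between genotypes at day 11 the pooled reads of cKO over flox gave a log2 ratio of 9.40 (95% exact counting interval 6.92 to 14.71), with an adjusted p of 0.839. Most of the cKO reads at day 11 came from 1 library. The summed level of 12 macrophage genes averaged 753 ± 357 CPM in cKO and 463 ± 174 CPM in flox mice at day 11 (SD, n = 4 each). In the 4 cKO libraries at day 11 this sum was 441, 1185, 480 and 908 CPM, beside 24.0, 0, 0.448 and 0 CPM of Slc2a3. The part of macrophage content in the level of Slc2a3 was not tested.

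Slc2a4 encodes the insulin-responsive GLUT4. It had 2.14, 10.7 and 21.2 CPM in cKO and 0, 0 and 0.668 CPM in flox mice after PBS, without overlap. At day 4 the values were 11.2, 9.53, 0 and 23.0 CPM in cKO and 0, 3.99 and 32.4 CPM in flox mice, and at day 11 11.4, 0, 4.48 and 5.83 CPM in cKO and 6.11, 14.7, 12.3 and 5.73 CPM in flox mice. The PBS difference was 5.63 ± 3.29 on the log2 scale (adjusted p = 0.792). All 4 flox libraries at day 11 lay above the flox PBS libraries, at an adjusted p of 0.653. Slc2a8, the gene of the intracellular transporter GLUT8, had reads in 12 libraries and reached at most 21.1 CPM.

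Hexokinase traps glucose in the cell as glucose phosphate. Hk1, the form found in most tissues (chromosome 10, 62268855 to 62379908, minus strand), supplied 79.1 to 100% of the hexokinase tags of a library. It had 114, 224, 363 and 164 CPM in cKO and 138, 88.5 and 142 CPM in flox mice at day 4, against 158, 106 and 94.6 CPM and 94.9, 127 and 69.3 CPM in cKO and flox mice after PBS. At day 11 it had 98.6, 81.3, 96.9 and 167 CPM in cKO and 52.6, 93.3, 267 and 167 CPM in flox mice. The highest value of all was a cKO library at day 4, the one with the fewest detected genes, and the groups overlapped. The difference at day 4 over PBS was 0.86 ± 0.52 in cKO and 0.34 ± 0.54 in flox mice on the log2 scale (adjusted p = 0.766 and 1.0).

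Hk2, the inducible hexokinase of muscle and of highly glycolytic cells (chromosome 6, 82725025 to 82774454, minus strand), had no reads in any of the 4 cKO libraries at day 4. The 3 flox libraries of that stage had 23.7, 3.55 and 34.6 CPM. After PBS it had 17.1, 0 and 4.75 CPM in cKO and 3.42, 0 and 18.2 CPM in flox mice, and at day 11 17.2, 13.4, 0 and 18.4 CPM in cKO and 0, 16.6, 0 and 4.52 CPM in flox mice. All groups other than flox at day 4 thus had at least 1 library without reads. With cKO at day 4 set at its floor of 3 counts over the group (0.0393 CPM), the log2 fold change was -9.03 or lower against flox at day 4 and -7.53 or lower against cKO after PBS. Such a floor covers counting error and not the spread between mice.

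Hk2 had the smallest p of the set between genotypes at day 4, with an adjusted p of 0.661. Against cKO mice after PBS the adjusted p was 0.598, for the interaction at day 4 0.539, over both genotypes at day 4 0.514, and between genotypes over all stages 0.689. The other hexokinases were too rare to test, Hk3 with 27 reads in 1 library and Hkdc1 with 130 reads in another. Gpi1, which converts glucose phosphate to fructose phosphate, had reads in every library, with 217 ± 10.7 CPM in cKO and 201 ± 137 CPM in flox mice after PBS (SD, n = 3 each), a much wider spread in flox mice. Its difference between genotypes was -0.01 ± 0.26 on the log2 scale (95% interval -0.54 to 0.53).

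Phosphofructokinase commits sugar to glycolysis and is made from the liver-type (Pfkl), muscle-type (Pfkm) and platelet-type (Pfkp) genes. The summed level of the 3 genes was 61.1, 46.3, 0.154 and 96.6 CPM in cKO and 72.7, 143 and 80.2 CPM in flox mice at day 4. After PBS it was 219, 31.0 and 106 CPM in cKO and 135, 55.9 and 70.0 CPM in flox mice, and at day 11 86.3, 162, 133 and 194 CPM in cKO and 181, 121, 39.5 and 33.1 CPM in flox mice. The lowest sum was the cKO library at day 4 with the fewest detected genes, which held reads of Pfkm alone. All groups overlapped between genotypes. For cKO over flox the log2 fold change was 0.43 ± 0.84 for Pfkl, 0.29 ± 1.33 for Pfkm and -0.42 ± 0.79 for Pfkp (SE, adjusted p = 1.0, 1.0 and 1.0).

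The Pfkfb genes encode the enzymes that make and remove the sugar bisphosphate that activates phosphofructokinase. Pfkfb3, the form most tied to high glycolytic rates, had reads in 19 libraries. It had 41.3, 0.385, 25.7 and 0.817 CPM in cKO and 61.8, 52.5, 4.58 and 62.2 CPM in flox mice at day 11, so that both genotypes held high and low libraries. At day 4 it had 12.3, 27.0, 9.30 and 37.1 CPM in cKO and 31.5, 0 and 0.352 CPM in flox mice, and after PBS 45.5, 11.0 and 11.0 CPM in cKO and 12.8, 0 and 8.68 CPM in flox mice. The genotype difference was 0.42 ± 1.13 (SE, adjusted p = 1.0).

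Pfkfb1, the liver and muscle form, had reads in only 4 libraries and 291 reads in all. It was among the smallest unadjusted p values of the set in several comparisons, each of them with a group without reads. After PBS, 1 cKO library had 9.72 CPM and the other 5 libraries had none, which gave a log2 fold change of 5.89 or higher over the flox floor (adjusted p = 0.726). The value was -5.65 or lower for cKO at day 11 over cKO after PBS (adjusted p = 0.805) and -3.25 or lower for cKO over flox at day 11 (adjusted p = 0.885). Its interaction at day 11 had an adjusted p of 0.614. Pfkfb4 had 274 reads in 2 libraries and was not tested.

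**Figure D4:**
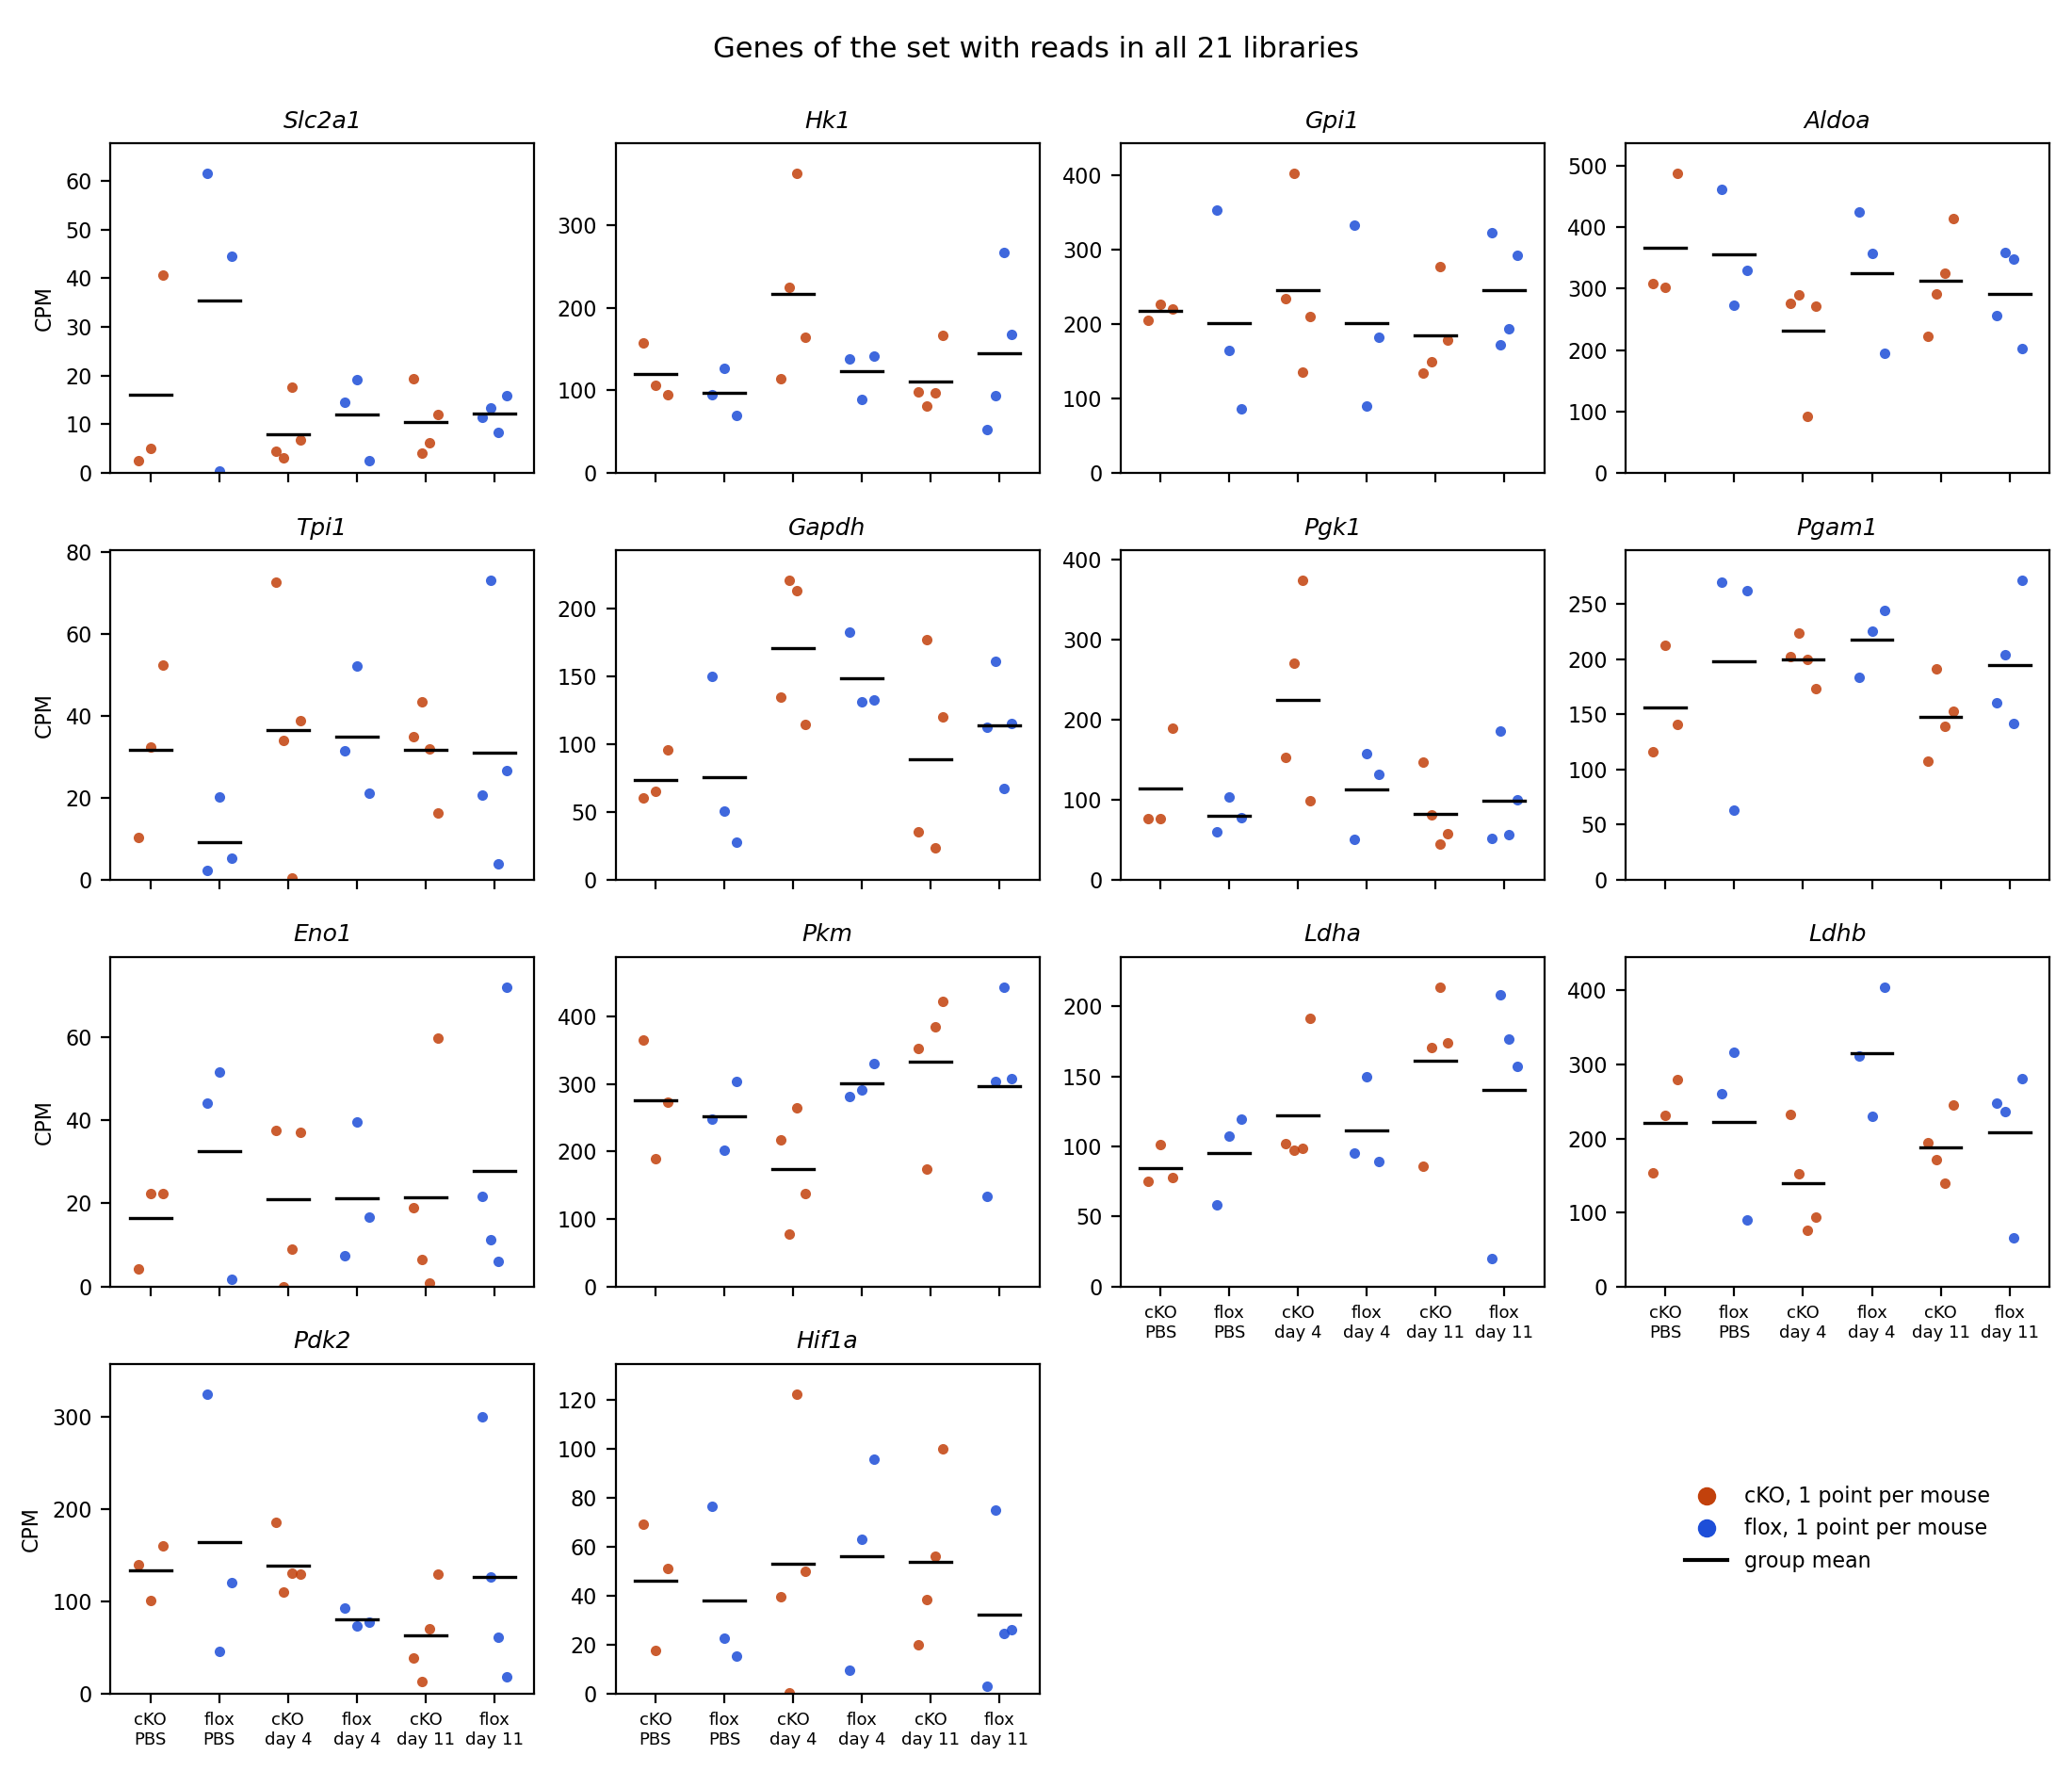
CPM of the 14 genes of the set with reads in all 21 libraries, 1 panel per gene and 1 point per mouse, for cKO (orange) and flox (blue) at each stage, with the group mean as a black line. The points of the 2 genotypes overlap at each stage except for Pkm (lower in cKO) and Pdk2 (higher in cKO) at day 4.

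Aldolase splits the sugar bisphosphate, and Aldoa (chromosome 7, 126795234 to 126800751, minus strand) encodes its main form in most tissues. It had 277, 289.6, 91.3 and 271 CPM in cKO mice at day 4, all below the 309, 302 and 488 CPM of cKO mice after PBS. The difference was -0.66 ± 0.37 on the log2 scale (adjusted p = 0.688), and -0.39 without the 2 libraries with the fewest genes and the fewest reads. In flox mice it had 425, 357 and 195 CPM at day 4 and 462, 273 and 330.5 CPM after PBS, which overlapped. At day 11 it had 223, 291, 324 and 414 CPM in cKO and 256, 359.5, 348 and 203 CPM in flox mice.

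Aldoc, the aldolase best known from brain, had reads in 7 libraries, of which the highest was 76.5 CPM in a cKO mouse at day 4. In flox mice after PBS no library had reads. The log2 fold change over that floor was 7.45 or higher in cKO mice after PBS, where 1 of 3 libraries had reads (adjusted p = 0.726). The adjusted p of Aldoc was 0.881 between genotypes over all stages and 0.702 for the interaction at day 11.

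Tpi1, which interconverts the triose phosphates, had 31.4, 52.1 and 21.2 CPM at day 4 and 2.21, 20.3 and 5.23 CPM after PBS in flox mice, without overlap, and 72.6, 33.9, 0.384 and 38.8 CPM and 10.4, 32.4 and 52.4 CPM in cKO mice, with overlap. The fitted log2 fold change over PBS was 1.92 ± 1.55 in flox (adjusted p = 0.950) and 0.20 ± 1.41 in cKO mice (adjusted p = 1.0). The lowest value, 0.384 CPM, came from the cKO library at day 4 with the fewest detected genes.

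Gapdh (chromosome 6, 125161715 to 125166467, minus strand), the NADH-producing step, was the gene of the set with the smallest p at day 4 over both genotypes. It had 135, 221, 213 and 114 CPM in cKO and 182.2, 131 and 133 CPM in flox mice at day 4. After PBS it had 60.3, 65.1 and 95.8 CPM in cKO and 149.5, 50.4 and 27.5 CPM in flox mice. All 4 cKO libraries at day 4 were above all 3 cKO libraries after PBS, while 1 flox library after PBS lay within the flox values of day 4. At day 11 the values were 35.3, 176.8, 23.3 and 119.7 CPM in cKO and 112, 161.3, 67.3 and 115 CPM in flox mice.

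The log2 fold change of Gapdh at day 4 over PBS was 1.09 ± 0.46 over both genotypes (adjusted p = 0.436). It was 1.21 ± 0.63 in cKO (adjusted p = 0.632) and 0.97 ± 0.66 in flox mice (adjusted p = 0.801), with an interaction of 0.24 ± 0.90. The summed proximal tubule genes averaged 4025 ± 2381 CPM in cKO and 3654 ± 1702 CPM in flox mice at day 4, above the PBS means given above, and with that content as a covariate the value over both genotypes was 0.94 (adjusted p = 0.606). Gapdh shares sequence at its transcript end with many pseudogenes, most of which were not counted in these data. It also shares 595 stretches of 50 bases with Gm3839, labelled protein-coding, which held 5484 reads. Reads of Gapdh may thus have been divided.

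Pgk1, the first ATP-producing enzyme of the pathway, had 153.4, 270.5, 374 and 98.6 CPM in cKO and 50.5, 157 and 131 CPM in flox mice at day 4, against 76.2, 76.6 and 189.7 CPM and 60.4, 103 and 77.0 CPM in cKO and flox mice after PBS. The log2 fold change at day 4 was 0.73 ± 0.43 over both genotypes (adjusted p = 0.668). Pgam1, the general phosphoglycerate mutase, had at day 4 200.1 ± 20.8 CPM in cKO (SD, n = 4) and 218 ± 31.2 CPM in flox mice (SD, n = 3). Its genotype difference was -0.29 ± 0.24 (95% interval -0.78 to 0.21).

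Pgam2, the muscle form of the mutase, had 37.5, 16.9 and 26.7 CPM in cKO and 0.0526, 0.221 and 0.501 CPM in flox mice after PBS, which did not overlap. At day 4 it had 17.3, 154, 0 and 0 CPM in cKO and 0, 57.2 and 38.5 CPM in flox mice, and at day 11 0, 0, 13.9 and 0 CPM in cKO and 78.4, 28.7, 0 and 8.14 CPM in flox mice. All 4 cKO libraries at day 11 lay below those after PBS, 3 of them without reads. The fitted log2 fold change was 6.67 ± 3.26 for cKO over flox after PBS (adjusted p = 0.726), and 6.91 ± 3.30 at day 4 and 6.77 ± 3.24 at day 11 over PBS in flox mice (adjusted p = 0.592 and 0.579). In cKO mice the values were 0.67 ± 2.41 and -2.98 ± 2.46, and the interaction at day 11 was -9.74 ± 4.04 (adjusted p = 0.652).

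Enolase makes phosphoenolpyruvate. Eno1, its general form, had only 9106 reads in all, while Eno1b, a near-identical copy that shares 968 stretches of 50 bases with its transcript ends, had 20514, so reads of Eno1 may have been counted under Eno1b. Summed, the 2 genes had 55.7 ± 11.7 CPM in cKO and 66.0 ± 29.2 CPM in flox mice after PBS (SD, n = 3 each). At day 4 the sum was 74.2 ± 29.1 CPM in cKO (n = 4) and 96.4 ± 31.4 CPM in flox mice (n = 3), and at day 11 68.4 ± 48.8 CPM and 84.1 ± 42.3 CPM (n = 4 each). The genotypes overlapped at each stage. Alone, Eno1 gave a log2 fold change of -0.46 ± 0.98 for cKO over flox (adjusted p = 1.0).

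Eno2, the neuronal enolase, had 8.56, 0.196 and 0.851 CPM in cKO mice after PBS and no reads in cKO mice at day 4 or in flox mice after PBS. Its log2 fold change was 5.88 or higher for cKO over flox after PBS (adjusted p = 0.726) and -6.35 or lower for day 4 over PBS in cKO mice (adjusted p = 0.598). At day 11 it had 47.7, 0.128, 0 and 0 CPM in cKO and 0, 6.95, 34.6 and 0 CPM in flox mice. The flox value was 7.57 or higher on the log2 scale over flox after PBS (adjusted p = 0.579). The adjusted p was 0.473 at day 11 over both genotypes and 0.596 for the interaction at day 4. Eno3, the muscle enolase, had 9.34, 6.01 and 7.57 CPM in cKO and 1.74, 0 and 0 CPM in flox mice after PBS, without overlap (adjusted p = 1.0).

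Pyruvate kinase makes pyruvate and ATP, and Pkm (chromosome 9, 59656368 to 59679375, plus strand) supplied nearly all of its tags, 89.3 to 100% of Pkm and Pklr together. Tags at the transcript end do not separate the splice forms of Pkm. It had 217, 77.7, 264 and 138 CPM in cKO and 282, 291 and 331 CPM in flox mice at day 4, without overlap. After PBS it had 366, 189.8 and 273 CPM in cKO and 248, 202 and 304 CPM in flox mice, and at day 11 353, 175, 384 and 422 CPM in cKO and 134, 304, 443 and 308 CPM in flox mice, with overlap at both stages. The log2 fold change at day 4 was -0.79 ± 0.40 (SE, adjusted p = 0.675), and -1.06 (adjusted p = 0.768) without the 2 weakest libraries.

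Pklr, the pyruvate kinase of liver, red cells and proximal tubule, had reads in 9 libraries and reached 45.9 CPM in 1 cKO library at day 11. It had no reads in flox mice at day 4, over which floor cKO mice at day 4 gave a log2 fold change of 5.80 or higher from the reads of 1 library (adjusted p = 0.672). The fitted log2 fold change at day 11 over PBS was 7.52 ± 4.49 in cKO mice (adjusted p = 0.958) and 5.39 ± 2.87 over both genotypes (adjusted p = 0.605). The interaction at day 4 had an adjusted p of 0.638. The summed erythrocyte genes averaged 1446 ± 694 CPM in cKO and 5293 ± 6926 CPM in flox mice at day 11 (SD, n = 4 each), against 11161 ± 8322 CPM and 6849 ± 6594 CPM in cKO and flox mice after PBS (n = 3 each). Their part in the level of Pklr was not tested.

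Lactate dehydrogenase is built from the products of Ldha, which favours lactate formation, and Ldhb, which favours its use. Ldhb (chromosome 6, 142490249 to 142507957, minus strand) had 233, 152.6, 76.7 and 94.3 CPM in cKO and 312, 230.3 and 404 CPM in flox mice at day 4. Only the highest cKO library reached the lowest flox one. After PBS it had 153.2, 232 and 279.7 CPM in cKO and 261, 317 and 90.1 CPM in flox mice, and at day 11 194, 172, 140.2 and 245 CPM in cKO and 248, 237, 65.6 and 281 CPM in flox mice. Its log2 fold change of cKO over flox was -1.18 ± 0.46 at day 4 (95% interval -2.12 to -0.24, adjusted p = 0.661), -0.01 ± 0.49 after PBS and -0.15 ± 0.43 at day 11.

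Ldhb is also expressed in tubules. The summed distal tubule genes averaged 2663 ± 1250.4 CPM in cKO (SD, n = 4) and 2454 ± 602 CPM in flox mice (SD, n = 3) at day 4, with overlap. With proximal tubule content as a covariate the day 4 difference of Ldhb was -1.17 on the log2 scale (adjusted p = 0.890). That covariate does not measure distal content, whose part in the level of Ldhb was not tested. The interaction at day 4 was -1.17 ± 0.68 (adjusted p = 0.755).

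Ldha (chromosome 7, 46841475 to 46855627, plus strand) had 75.3, 102 and 77.9 CPM after PBS, 102, 97.5, 98.6 and 192 CPM at day 4 and 86.3, 171, 214 and 174 CPM at day 11 in cKO mice. In flox mice it had 58.6, 107 and 119.9 CPM after PBS, 95.5, 150.1 and 89.1 CPM at day 4 and 19.9, 208, 176.7 and 157 CPM at day 11. In both genotypes 3 of 4 libraries at day 11 were above all PBS libraries, and the remaining flox library had the lowest value of all. The log2 fold change at day 11 over PBS was 0.92 ± 0.57 in cKO (adjusted p = 0.997), 0.56 ± 0.57 in flox mice (adjusted p = 1.0) and 0.74 ± 0.40 over both (adjusted p = 0.616).

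As a description, Ldha made up 33.0, 30.5 and 21.8% of the tags of both genes in cKO mice after PBS, 30.5, 39.0, 56.2 and 67.0% at day 4 and 30.7, 49.8, 60.4 and 41.5% at day 11. In flox mice the shares were 18.4, 25.3 and 57.1% after PBS, 23.4, 39.5 and 18.1% at day 4 and 7.43, 46.8, 72.9 and 35.9% at day 11. Of the 8 cKO libraries with nephritis, 6 were above all 3 cKO libraries after PBS. The flox libraries spread from the lowest to the highest share of the study at day 11 alone. The sum of both genes averaged 262 ± 67.2 CPM in cKO (SD, n = 4) and 427 ± 59.0 CPM in flox mice (SD, n = 3) at day 4, without overlap between them.

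**Figure D5:**
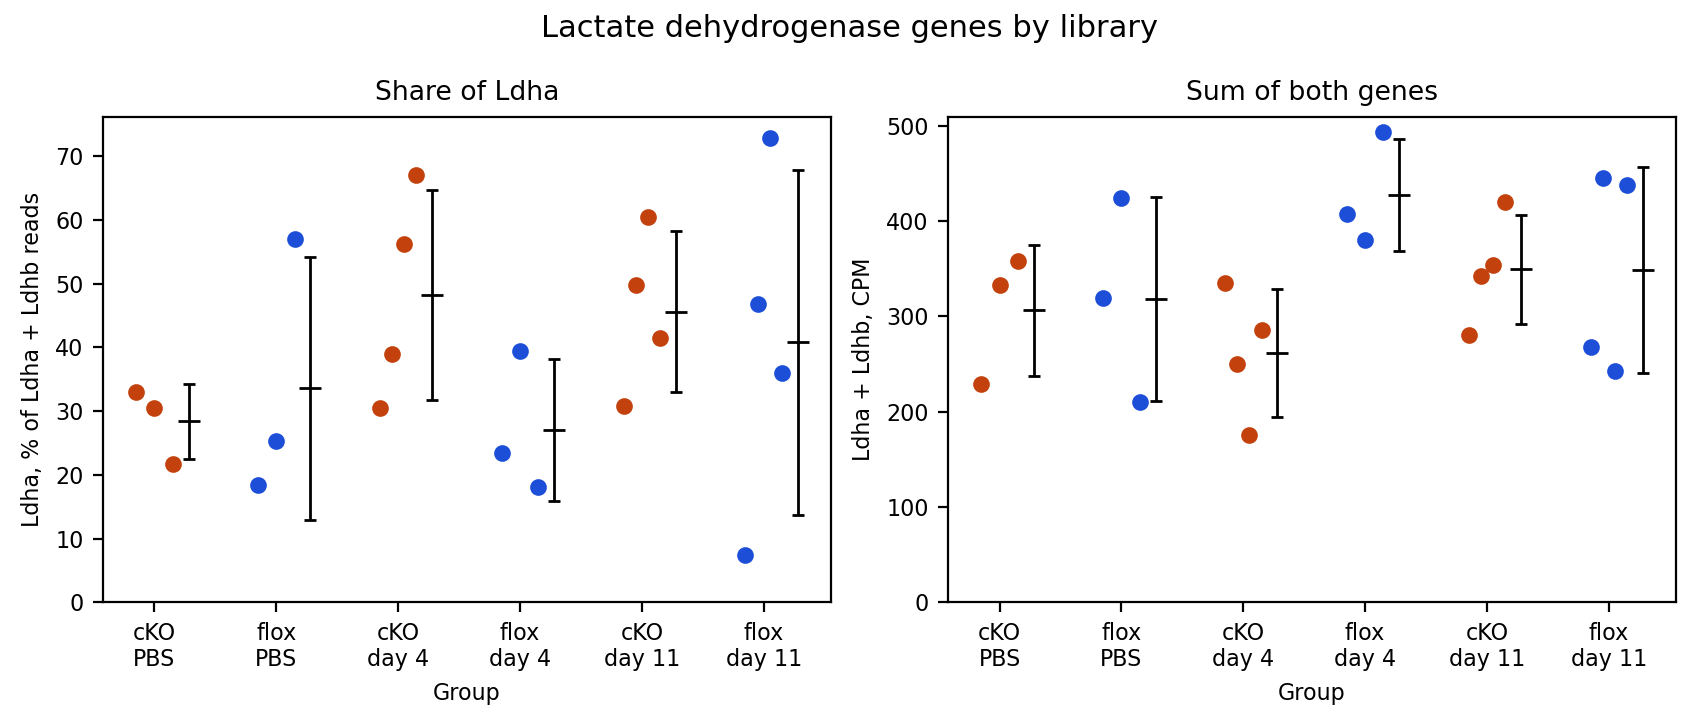
Share of Ldha among the tags of Ldha and Ldhb in percent (left) and the sum of both genes in CPM (right), 1 point per mouse, with mean and SD beside each group, for cKO (orange) and flox (blue). The mean share is 48.2% in cKO and 27.0% in flox mice at day 4 and 45.6% and 40.8% in cKO and flox mice at day 11, and the genotypes overlap at both stages.

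The lactate transporters were rare. Slc16a1, the general carrier, had reads in 14 libraries, up to 53.9 CPM, and a genotype difference of 0.15 ± 1.55 on the log2 scale (adjusted p = 1.0). Slc16a3, the exporter of glycolytic cells, had reads in 6 libraries and none in flox mice at day 4. That floor lay -7.66 or lower on the log2 scale against flox mice after PBS, where 1 library had 29.2 CPM and the others none (adjusted p = 0.592). Over both genotypes at day 4 the adjusted p of Slc16a3 was 0.538.

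The pyruvate dehydrogenase kinases hold pyruvate back from the mitochondrion. Pdk2 (chromosome 11, 95026258 to 95041354, minus strand) was the most abundant of the 3 and had 186, 109.8, 130.5 and 129.9 CPM in cKO and 92.3, 73.6 and 77.0 CPM in flox mice at day 4, without overlap. After PBS it had 139, 101.1 and 160.2 CPM in cKO and 325, 46.1 and 121 CPM in flox mice, and at day 11 38.6, 13.2, 70.3 and 130.0 CPM in cKO and 300.3, 127, 61.5 and 18.4 CPM in flox mice. The fitted log2 fold change of cKO over flox was 0.78 ± 0.71 at day 4 and -1.01 ± 0.66 at day 11 (adjusted p = 1.0 and 1.0), so the sign differed between the stages. Pdk1, which is induced by hypoxia, had reads in 14 libraries, up to 100.6 CPM in a flox mouse after PBS, and an adjusted p of 1.0 between genotypes. Pdk4, the fasting-induced kinase, had reads in 5 libraries, with nearly all its reads in 1 cKO library at day 11 with 48.7 CPM, and was not tested.

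Hif1a encodes the oxygen-regulated factor that raises many glycolytic genes, and is itself controlled mainly at the protein level. It had 69.3, 17.7 and 51.0 CPM after PBS, 39.4, 0.104, 122 and 50.05 CPM at day 4 and 19.9, 38.3, 56.2 and 99.9 CPM at day 11 in cKO mice. In flox mice it had 76.5, 22.6 and 15.4 CPM after PBS, 9.68, 62.9 and 95.7 CPM at day 4 and 3.05, 74.9, 24.5 and 26.0 CPM at day 11. All groups overlapped, and the genotype difference was 0.31 ± 0.72 on the log2 scale (95% interval -1.15 to 1.77, adjusted p = 1.0).

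Neighbouring pathways were read in the same way, and 0 genes of any of the 7 lists below were called between genotypes or, averaged over genotypes, at day 4 or day 11. Of 18 hypoxia-response genes, 16 were tested, and Vegfa, the angiogenic factor made by podocytes, had the smallest p of the list in nephritis. It averaged 499 ± 179.4, 211 ± 75.9 and 277 ± 51.2 CPM in cKO mice after PBS, at day 4 and at day 11 (SD, n = 3, 4 and 4). In flox mice it averaged 529 ± 71.5, 288 ± 87.5 and 276 ± 89.2 CPM (n = 3, 3 and 4). Its log2 fold change over PBS was -1.06 ± 0.25 at day 4 and -0.89 ± 0.24 at day 11 (adjusted p = 0.180 and 0.186). The 8 podocyte marker genes had a median log2 fold change of -0.40 at day 4, with 6 below 0, and -0.50 at day 11, with 7 below 0, and their part in the level of Vegfa was not tested.

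Among 19 further genes of glycolysis and monocarboxylate transport, 13 were tested, and Bsg, the chaperone of the lactate transporters, had a log2 fold change at day 4 over PBS of 0.93 ± 0.31 (adjusted p = 0.376). All 8 pentose phosphate genes were tested, and Taldo1 gave 0.97 ± 0.30 at day 4 (adjusted p = 0.376), while Pgls gave 1.23 ± 0.53 for cKO over flox (adjusted p = 0.647). Of the 10 genes of pyruvate entry and pyruvate dehydrogenase, Pdhb gave 1.28 ± 0.54 at day 4 and Pdha1 -0.66 ± 0.35 at day 11 (adjusted p = 0.439 and 0.600). Among 11 glycogen and 6 hexosamine genes, Pygb gave -1.13 ± 0.60 at day 4 (adjusted p = 0.598), and Pgm3, without reads in flox mice after PBS, had an adjusted p of 0.376 at day 4.

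The 11 genes of gluconeogenesis and tubular sugar handling, which mark proximal tubule rather than glomerulus, had a median log2 fold change of -0.68 at day 11 over PBS with 9 of 11 below 0. Pck1 gave -1.33 ± 0.57 there (adjusted p = 0.432), beside the lower proximal tubule sums of day 11 given above. G6pc gave -1.15 ± 0.56 for cKO over flox (adjusted p = 0.749). For the remaining list genes with the smallest p, the genotype difference was 0.61 ± 0.42 for Pdhb (adjusted p = 1.0), and 2.19 ± 1.62 for Gys1, 1.56 ± 1.64 for Gnpnat1 and 1.85 ± 1.36 for Kdm3a on the log2 scale (adjusted p = 1.0, 1.0 and 1.0). Slc16a6, without reads in cKO mice at day 4, had an adjusted p of 0.596 between genotypes. At day 4 over PBS G6pc gave 1.06 ± 0.72 (adjusted p = 0.775). At day 11 over PBS Slc2a13, with a single read in flox mice at day 11, gave -4.33 ± 2.20, Tkt -0.45 ± 0.29 and Pygb -1.02 ± 0.58 (adjusted p = 0.568, 0.787 and 0.655), and Pgm3 had an adjusted p of 0.342. The part of tubular content in the levels of the glycolytic genes was not tested beyond fits with the proximal tubule covariate. The part of distal tubule content was not tested.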

How the data were processed

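Each of the 21 tables held 1 QuantSeq 3′ FWD library, from 1 mouse per the series' design text. The authors deposited estimated counts per gene, which need not be whole (95.2% were whole within 0.005), and these were rounded. The submitters' processing notes name FastQC, fastp, DRAGEN, Picard and mm10 without versions. Neither annotation release nor strand setting was given in the sources used here. Identifiers were matched to GENCODE M21 (35513 of 35598 matched).

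Counts were analysed in R 4.3.3 with edgeR 4.0.16: genes with low counts were removed by filterByExpr (minimum 10), leaving 13898, libraries were scaled by TMM (factors 0.751 to 1.12), and the robust quasi-likelihood model had 6 group means and 15 residual degrees of freedom. CPM uses the TMM-scaled library size. The common biological coefficient of variation was 1.66. Adjusted p-values are Benjamini-Hochberg values over all genes tested, called under 0.05, and they rest on the spread between these mice. Intervals are 95%. Averages over stages or genotypes weight groups equally. DESeq2 1.42.0, limma 3.58.1 voom, other filters and scalings, a proximal tubule covariate and left-out libraries were the alternatives. Copies were sought as shared 50-base stretches in the last 500 bases of transcripts: 11 genes of the set shared some with 291 other genes, of which 65 were in the tables.

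The genes of the set and all lists were chosen with earlier results of these data known. Fold changes, or the adjusted p alone where a contrast of several groups held one without reads, are given for called genes, for the 3 with the smallest p in each comparison, for 13 chosen genes between genotypes, and for the smallest p of each neighbouring list. Other fold changes in the text, among them those of genes whose libraries did not overlap between groups, were chosen after their values were seen. Same-numbered libraries of different groups did not vary together (correlations -0.051 to 0.030 over 48 pairs), so numbers were not taken as pairs.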

Additional observations from a re-analysis of the deposited data

Results flagged for a closer look

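In 28 of 95 sets of 4 mice, 1 library of a gene lay further from the other 3 than Dixon's 95% critical value allows. Chance marks about 1 in 20 such sets of normally distributed values, a rate that does not hold for levels with many zeros. In 13 of the 28 sets the marked library was the only one with reads, 2 of them with a single read, which marks a set by construction. Over all genes tested, 25.7% of sets of 4 were marked. The 95 sets also include those of Pfkfb4 and Pdk4, which were not tested and were marked in every such set with reads. No explanation was tested.

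Among the transporters, Slc2a3 was marked at 24.0 CPM in cKO replicate 1 and 0.0650 CPM in flox replicate 1 at day 11. Slc2a8 was marked at 16.96 CPM in cKO replicate 1 at day 4, and at 2.12 CPM in cKO replicate 2 and 17.2 CPM in flox replicate 2 at day 11. Slc16a1 was marked at 12.7 CPM in cKO replicate 1 at day 4 and 27.1 CPM in flox replicate 3 at day 11. Slc16a3 was marked at 10.8 CPM in cKO replicate 1 at day 4, and at 15.3 CPM in cKO replicate 2 and 7.34 CPM in flox replicate 2 at day 11.

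Among the phosphofructokinase genes, Pfkp stood at 43.6 CPM in cKO replicate 4 at day 4. Pfkfb1 stood at 2.46 CPM in flox replicate 2 at day 11, and Pfkfb3 was low at 4.58 CPM in flox replicate 3 at day 11. Pfkfb4 stood at 12.1 CPM in cKO replicate 1 at day 4 and at 0.785 CPM in cKO replicate 1 at day 11.

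From aldolase to lactate dehydrogenase, Aldoa was low at 91.3 CPM and Aldoc high at 76.5 CPM in the same library, cKO replicate 3 at day 4, and Aldoc stood at 10.9 CPM in cKO replicate 4 at day 11. Pgam2 stood at 154 CPM in cKO replicate 2 at day 4 and 13.9 CPM in cKO replicate 3 at day 11. Eno2 stood at 47.7 CPM in cKO replicate 1 at day 11. Pklr stood at 10.7 CPM in cKO replicate 4 at day 4 and 45.9 CPM in cKO replicate 3 at day 11. Ldha stood at 192 CPM in cKO replicate 4 at day 4.

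Of the kinases, Pdk1 stood at 17.04 CPM in cKO replicate 4 at day 4. Pdk4 stood at 0.0769 CPM in cKO replicate 3 at day 4, and at 48.7 CPM in cKO replicate 2 and 0.0895 CPM in flox replicate 4 at day 11.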

How the results depend on the processing

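No gene of the set was called by edgeR or limma voom under any of the other 33 settings, and DESeq2 alone made calls. Genes of the set called by DESeq2 numbered 2 between genotypes over all stages, 2 after PBS and 4 at day 4. Against PBS they numbered 2 in cKO mice at day 4, 4 and 3 in flox mice at day 4 and day 11, 2 at day 4 and 2 at day 11 over both genotypes, and 4 and 2 for the interactions. The DESeq2 calls over all genes are given in the next paragraph. Of 1438 recomputed named fold changes, 1406 kept direction and side of the threshold, 17 in 6 results turned and 15 passed the threshold. None of 222 group means moved beyond 1 SD under 2 other scalings. Means of groups without reads cannot move, and the SD between mice was wide, so only large shifts could have shown. Aldoc between genotypes was -2.67 with a replicate block and -0.90 with the tubule covariate, and Hif1a was -0.064 by voom. Leaving out 1 library gave -0.22 to 0.67 for Pfkm, -0.26 to 0.25 for Gapdh, -0.066 to 0.14 for Ldha and -0.72 to 2.56 for Slc16a1 between genotypes. Eno1 summed with Eno1b gave -0.31 in place of -0.46, and Gapdh summed with its copies gave 1.01 in place of 1.09 at day 4 over both genotypes. Both sums were chosen after seeing the data.

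Over all genes, edgeR called 1 gene between genotypes over all stages and 0 at PBS, day 4 and day 11. Against PBS it called 0 at day 4 and 7 at day 11 in cKO mice, 0 and 0 in flox mice, 3 and 17 over both, and 0 for both interactions. In that order DESeq2 called 904, 935, 800, 495, 793, 640, 1126, 1136, 1256, 1164, 1113 and 951. Voom called 3, 41, 8, 13, 36, 103, 62, 26, 16, 90, 10 and 4. Without the low-count filter the first 10 counts were 3, 1, 2, 1, 1, 12, 2, 4, 17 and 39. For genes with a mean log2 CPM from 6 upward they were 0 between genotypes over all stages, 1 in flox mice at day 4 and 27 at day 11 over both. With the compared groups alone they were 1 after PBS and 1 at day 11 between genotypes and 27 at day 11 over both. The tubule covariate gave 1 in flox mice at day 4 and 5 at day 4 over both. The replicate block gave 10 at day 11 over both and changed no call of the set, and the numbers were shared without pairing the mice. Without cKO replicate 3 of day 4 and of day 11, the counts were 1 between genotypes after PBS, 13 in cKO mice at day 11, 1 and 6 in flox mice at day 4 and day 11, and 17 and 37 over both. Leaving out single libraries gave 1 to 3 genes between genotypes over all stages, 0 to 2 after PBS, 0 to 14 at day 4 and 0 to 1 at day 11. Against PBS it gave 0 to 10 and 3 to 10 in cKO mice at day 4 and day 11, 0 to 3 and 0 to 6 in flox mice, 2 to 16 and 12 to 30 over both, and 0 to 4 for the interaction at day 4. The 14 called at day 4 came without cKO replicate 1 of that stage. The cause of these changes was not tested. Depth limits the rare genes: a count of 0 in a library allows up to 0.120 to 0.672 CPM, for counting error only.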
